A study of Homo sapiens with 6 samples.

Results

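The histone cluster genes are the protein-coding rows of the gene table whose symbols start with HIST1H, HIST2H, HIST3H or HIST4H, the older names that the table uses. This rule found 71 genes of 58735 rows, and it used no measured value. There were 6 genes of the linker histone H1, 17 of H2A, 18 of H2B, 15 of H3 and 15 of H4. Of the 71 genes, 55 lie in the HIST1 cluster on chromosome 6, 12 in the HIST2 cluster and 3 in the HIST3 cluster, both on chromosome 1, and 1, HIST4H4, lies on chromosome 12.

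RNA was measured in Raji cells, an established line of Burkitt lymphoma, a tumour of B cells. All 6 libraries came from cells with the genotype label GFP-ffluc, grown in RPMI medium with L-glutamine and 10% FBS. The control group was 3 libraries of cells given DMSO, the solvent. The treated group was 3 libraries of cells given 1 nM Bryostatin-1, a marine natural product that activates protein kinase C. Both treatments lasted overnight at 37 °C. RNA was purified on a silica column, and libraries were prepared after enrichment for polyadenylated RNA. Nothing in the labels says whether the libraries of a group came from separate cultures, so the tests measure only the spread between these libraries. Each group is 1 cell line, and no protein or cell cycle measurement was analysed here.

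The values are FPKM, fragments scaled by the length of the gene model and by library size, and the reads behind them were recovered as whole numbers. The libraries held between 19405370 and 24468270 reads on genes, and 11503 of those reads in all fell on the histone cluster genes. Of the B cell markers, CD79A, part of the B cell receptor complex, averaged 465 FPKM over the 6 libraries, and PAX5, a B cell transcription factor, averaged 44.0 FPKM. The 10 markers of T cells, myeloid cells, epithelium and fibroblasts each stayed under 1 FPKM on average. The highest of them, COL1A1, averaged 0.504 FPKM, while EPCAM and COL1A2 were listed at 0 in all 6 libraries. In some lists of genes, DMSO replicate 3 stood apart from the other DMSO libraries in the direction of the treated ones. On the log2(FPKM + 1) scale, the median of 30 S phase genes lay 0.19 above the mean of all 6 libraries in DMSO replicate 3, against -0.69 and -0.35 in DMSO replicates 1 and 2. This did not hold for every list. The median of the 5 B cell markers in DMSO replicate 3 was -0.32, below the treated libraries at 0.27, -0.17 and 0.07. Over all genes tested it was 0.01. Results are therefore given with and without that library where it decides them.

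Histones package DNA into nucleosomes, in which H2A, H2B, H3 and H4 form the core and H1 binds the linker DNA. The clustered genes supply histones during DNA replication, and most of their mRNAs end in a conserved stem-loop in place of a poly(A) tail. The stem-loop is bound by SLBP, and the transcript is cut just downstream of it by a machinery that includes the U7 small nuclear RNP. Some clustered genes also give transcripts that run past the stem-loop and carry a poly(A) tail, in particular in cells that have stopped dividing or are differentiating. A library made from polyadenylated RNA therefore holds an unknown share of the transcripts of these genes, and a level here is the level of RNA that passed the enrichment.

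The stem-loop was looked for in the annotated 3′ ends of the 71 genes, because its place in the gene model decides which part of a transcript a read can be counted on. It was found in 24 gene models, as 4 versions of 16 bases. In 35 of the 71 models nothing is annotated after the coding part, so no stem-loop could be found there. The pattern searched for allowed set alternatives at some positions only, which limits the versions that could be seen. The sequences below are DNA letters in the direction of the gene, without capitals since no part is singled out. The first was shared by 17 genes, namely 6 of H2A, 8 of H2B and 3 of H3, among them HIST3H2A, HIST1H2AC, HIST1H2BH and HIST2H2BE. The second was that of 5 H4 genes, among them HIST4H4 and HIST1H4J. The third was seen in HIST1H3E and the fourth in HIST1H2AG, 1 gene each.
H2A, H2B and H3 genes: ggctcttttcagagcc
H4 genes: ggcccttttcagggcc
HIST1H3E: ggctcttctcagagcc
HIST1H2AG: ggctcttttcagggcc

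The levels were low. Of the 71 genes, 11 were listed at 0 in every library, 32 had a mean above 0 but under 1 FPKM, and 28 reached a mean of 1 FPKM and were tested. Only 4 genes averaged 5 FPKM or more, and the most abundant, HIST1H2BK, stood at percentile 88.8 of the 11071 genes tested. The 28 tested genes had between 48 and 1656 reads over the 6 libraries, with a median of 172.5. Of these 28, 25 reached 1 FPKM in both groups, while 2 passed the limit only through the bryostatin mean and 1 only through the DMSO mean.

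**Figure D1:**
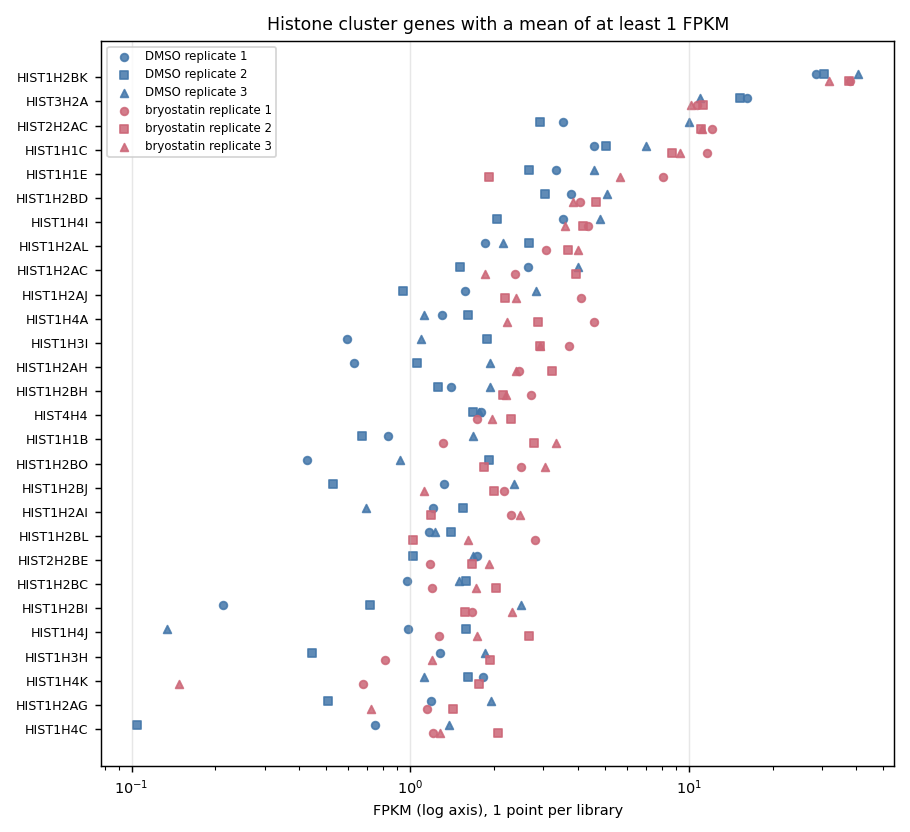
FPKM (log axis) of the 28 tested histone cluster genes, 1 point per library, DMSO in blue and bryostatin in red, with a symbol for each replicate. HIST1H2BK lies far to the right of all others, and for HIST2H2AC the point of DMSO replicate 3 sits beside the bryostatin points.

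With bryostatin, most tested histone cluster genes had higher values than with DMSO, by amounts that did not pass correction over all genes. Of 28 genes, 25 (89.3%) had a higher mean on the log2(FPKM + 1) scale, and their median difference was 0.37. The count was 19 of 28 without DMSO replicate 2 and 22 of 28 with a trend on gene length removed. Among the 25 are HIST1H4J and HIST1H4C, which passed the limit of 1 FPKM only through the bryostatin mean. HIST1H4K, which passed it only through the DMSO mean, is among the genes that were lower. Over all 11071 genes tested, 5967 (53.9%) were higher and the median difference was 0.02. Since the libraries are bulk RNA, a change in the share of cells in a phase of the cell cycle and a change in RNA per cell cannot be told apart.

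No histone cluster gene passed limma's test at an adjusted p under 0.05 (Benjamini-Hochberg over all genes), and neither did any other gene, so the background share was 0%. limma with voom weights on the recovered reads also called 0 of 11071 genes. At an unadjusted p under 0.05, 9 histone cluster genes were higher, against 10.5% of all genes tested, and 1 was lower, against 7.18%. In 7 genes all bryostatin libraries lay above all DMSO libraries, against 12.9% of all genes, and in 0 genes they lay below, against 10.7%. On the TPM scale the split of all genes at an unadjusted p under 0.05 turned from 1159 higher and 795 lower to 848 higher and 1099 lower, while the histone cluster genes stayed at 9 and 1. For a single value, an exact permutation test over 3 against 3 libraries cannot give a two-sided p below 0.1.

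DMSO replicate 3 decided how firm these differences were. DMSO replicate 1 was below the whole range of the bryostatin libraries for 17 of the 28 genes, inside it for 9 and above it for 2. DMSO replicate 2 was below that range for 20 genes, inside it for 7 and above it for 1. DMSO replicate 3 was below it for only 10 genes, inside it for 11 and above it for 7. Without DMSO replicate 3, 267 of all genes passed the adjusted threshold, 4 of them histone cluster genes, and the median difference of the 28 genes was 0.46. These were HIST2H2AC (adjusted p = 0.0336), HIST1H1C (0.0430) and HIST1H2AH (0.0447), higher with bryostatin, and HIST3H2A (0.0443), lower. DMSO replicate 3 was singled out from these same data, because it lay toward the treated libraries. Leaving it out therefore tends to widen the differences by selection, and these calls are no separate evidence. Without DMSO replicate 1, in contrast, 5 histone cluster genes were higher at an unadjusted p under 0.05 and 0 were lower. The counts over all genes were also smaller there, 641 higher and 328 lower against 1159 and 795 with every library.

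**Figure D2:**
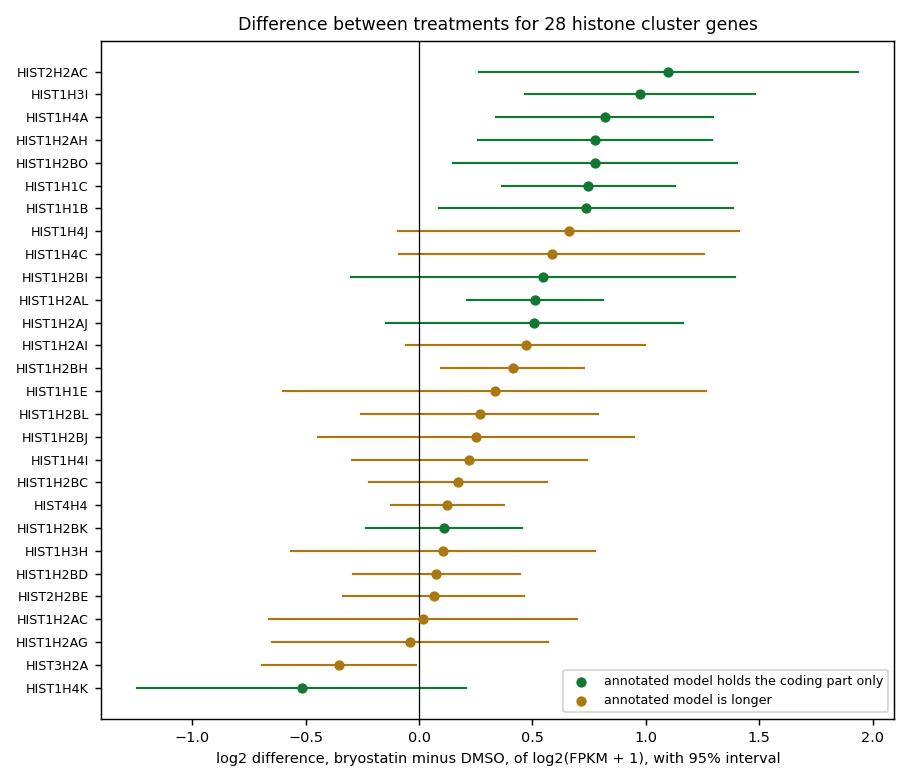
Difference between bryostatin and DMSO in mean log2(FPKM + 1) for the 28 tested genes, with its 95% interval from limma, sorted by size. Green marks gene models with nothing annotated after the coding part (coding-only) and brown marks longer models. Of the 28 points 25 lie right of 0, and HIST3H2A and HIST1H4K lie farthest to the left.

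The summed level of all 71 genes was 97.2, 94.8 and 129.9 FPKM in DMSO replicates 1, 2 and 3. It was 146.5, 141.5 and 131.9 FPKM in bryostatin replicates 1, 2 and 3. The groups did not overlap, but DMSO replicate 3 came within a few FPKM of bryostatin replicate 3. The means were 107 ± 19.6 (SD, n = 3) with DMSO and 140.0 ± 7.43 (SD, n = 3) with bryostatin, a log2 ratio of 0.38, or 0.54 without DMSO replicate 3. As CPM, counts scaled by library size without division by gene length, the sums were 79.7, 70.6 and 100.5 with DMSO and 99.7, 105.6 and 94.97 with bryostatin. On that scale DMSO replicate 3 lay above bryostatin replicates 1 and 3, and the groups overlapped. HIST1H2BK and HIST3H2A make up a large part of the FPKM sum, and without both the means were 59.9 ± 16.1 (SD, n = 3) and 93.6 ± 4.14 (SD, n = 3).

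The linker histone H1 had the largest ratio of summed levels among the 5 families. Its 6 genes summed to 8.72, 8.38 and 13.3 FPKM with DMSO and to 21.3, 13.5 and 18.4 FPKM with bryostatin, a ratio of the means of 1.75. The groups did not overlap, though DMSO replicate 3 and bryostatin replicate 2 lay close together. As CPM these libraries both stood at 9.15, so that the groups met. All 3 tested H1 genes were higher, with a median log2 difference of 0.74.

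HIST1H1C (chr6:26055787-26056428, minus strand), the most abundant H1 gene, had 4.55, 5.05 and 6.998 FPKM with DMSO. With bryostatin it had 11.7, 8.72 and 9.31 FPKM. Every bryostatin library was above every DMSO library, and DMSO replicate 3 was the highest of its group. The log2 difference was 0.75 ± 0.16 (SE), with a 95% interval from 0.37 to 1.13 and an adjusted p of 0.216 by limma. HIST1H1B (chr6:27866849-27867529), another replication-dependent H1 gene, had 0.834, 0.670 and 1.69 FPKM with DMSO and 1.32, 2.79 and 3.33 FPKM with bryostatin. Here the groups overlapped, since DMSO replicate 3 was above bryostatin replicate 1, and the log2 difference was 0.74 ± 0.27 (SE) with an adjusted p of 0.247 by limma. HIST1H1E had 3.34, 2.66 and 4.57 FPKM with DMSO and varied widely among the bryostatin libraries, at 8.11, 1.92 and 5.65 FPKM, and its log2 difference of 0.33 had an interval from -0.60 to 1.27. The other H1 genes, HIST1H1A and HIST1H1D, averaged 0.0129 and 0.0512 FPKM, and HIST1H1T, which is known from the testis, was listed at 0.

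The H2A genes held both the largest difference upward and the clearest one downward. Of 8 tested H2A genes, 6 were higher, with a median log2 difference of 0.49. The summed level of the 17 genes was 29.8, 27.2 and 36.0 FPKM with DMSO and 41.2, 40.5 and 37.6 FPKM with bryostatin, a ratio of 1.28 with no overlap. As CPM the H2A sums overlapped, with means of 25.5 and 26.8.

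HIST2H2AC (chr1:149886975-149887364, plus strand) had 3.54, 2.93 and 9.98 FPKM with DMSO, from 34, 25 and 78 reads. With bryostatin it had 12.2, 11.02 and 11.2 FPKM, from 90, 86 and 94 reads. The treated libraries were all alike, whereas DMSO replicate 3 had almost the treated level and the other DMSO libraries far less. The log2 difference was 1.10 ± 0.36 (SE), with an adjusted p of 0.227 by limma, and it was 1.56 without DMSO replicate 3. Of the 50-base stretches of its model, 30.5% also occur in transcripts of another gene, so part of its reads may be shared.

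HIST3H2A (chr1:228456979-228457873, minus strand) was the second most abundant of the 71 genes, and its treated values were the lower ones. It had 16.1, 15.3 and 10.9 FPKM with DMSO, from 356, 300 and 196 reads. With bryostatin it had 10.7, 11.3 and 10.1 FPKM, from 181, 202 and 196 reads. DMSO replicates 1 and 2 were above all treated libraries, and DMSO replicate 3 lay inside their range, again at the treated level. The log2 difference was -0.35 ± 0.14 (SE), with a 95% interval from -0.69 to -0.02 and an adjusted p of 0.269 by limma. Without DMSO replicate 3 it was -0.52. Only 0.591% of its 50-base stretches occur in transcripts of another gene.

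Among the less abundant H2A genes, HIST1H2AL (chr6:27865355-27865747) had 1.86, 2.67 and 2.16 FPKM with DMSO and 3.09, 3.69 and 4.01 FPKM with bryostatin. HIST1H2AH (chr6:27147129-27147515) had 0.629, 1.06 and 1.93 FPKM with DMSO and 2.45, 3.23 and 2.39 FPKM with bryostatin. In both genes the groups did not overlap, and the log2 differences were 0.51 ± 0.13 (SE) and 0.78 ± 0.22 (SE). HIST1H2AC (chr6:26124145-26139116), known for transcripts with a poly(A) tail, had 2.65, 1.505 and 4.01 FPKM with DMSO and 2.37, 3.93 and 1.86 FPKM with bryostatin. Its groups covered the same range, and the log2 difference was 0.02, with an interval from -0.66 to 0.70. Its sign turned on the TPM scale and with the length trend removed, at -0.015 and -0.084. HIST1H2AJ, HIST1H2AI and HIST1H2AG had log2 differences of 0.51, 0.47 and -0.04.

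The H2B family had the highest summed level of the 5 families and, on the FPKM scale, the lowest ratio between the groups. Its 18 genes summed to 41.6, 44.0 and 61.6 FPKM with DMSO and to 59.7, 58.4 and 53.5 FPKM with bryostatin. DMSO replicate 3 was the highest of all 6 libraries, so the groups overlapped, and the ratio of the means was 1.17. All 9 tested H2B genes were higher, with a median log2 difference of 0.25.

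HIST1H2BK (chr6:27146418-27146798, minus strand) alone had 1656 of the 11503 reads. It had 28.6, 30.7 and 40.6 FPKM with DMSO and 37.8, 37.7 and 31.7 FPKM with bryostatin. The highest library was a DMSO library, and all 3 bryostatin libraries lay inside the DMSO range. The log2 difference was 0.11 ± 0.15 (SE), with a 95% interval from -0.24 to 0.45. Its annotated model covers the coding part only, so its FPKM is per coding length, and 74.1% of its 50-base stretches occur in transcripts of another gene.

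HIST1H2BD, HIST1H2BC and HIST2H2BE are, like HIST1H2BK, known for polyadenylated transcripts, and none differed beyond the spread between libraries. HIST1H2BD had 3.77, 3.04 and 5.10 FPKM with DMSO and 4.06, 4.65 and 3.83 FPKM with bryostatin. HIST1H2BC had 0.973, 1.59 and 1.496 FPKM with DMSO and 1.201, 2.04 and 1.72 FPKM with bryostatin. HIST2H2BE had 1.74, 1.02 and 1.68 FPKM with DMSO and 1.18, 1.66 and 1.92 FPKM with bryostatin. The groups overlapped in all 3 genes, and the log2 differences were 0.08, 0.17 and 0.06. The sign turned with the length trend removed for HIST1H2BD and HIST2H2BE, at -0.014 and -0.027.

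A pair of other H2B genes had an unadjusted p under 0.05. HIST1H2BH (chr6:26251651-26253710) had 1.40, 1.26 and 1.94 FPKM with DMSO and 2.71, 2.16 and 2.20 FPKM with bryostatin. HIST1H2BO (chr6:27893463-27893843) had 0.426, 1.92 and 0.917 FPKM with DMSO and 2.49, 1.84 and 3.04 FPKM with bryostatin. The groups were apart for HIST1H2BH, at a log2 difference of 0.41 ± 0.13 (SE). For HIST1H2BO, at 0.78 ± 0.27 (SE), DMSO replicate 2 was above bryostatin replicate 2. The adjusted p was 0.228 and 0.234 by limma. HIST1H2BI, HIST1H2BL and HIST1H2BJ had log2 differences of 0.55, 0.27 and 0.25, and all overlapped between groups.

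**Figure D3:**
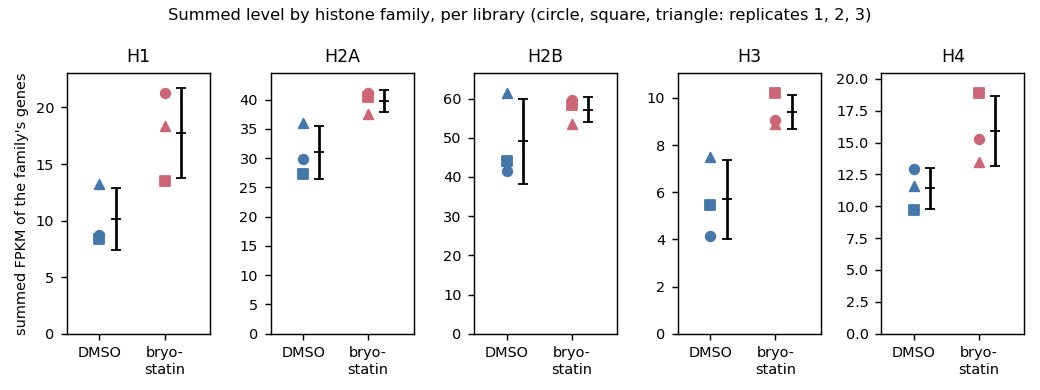
Summed FPKM of all genes of each family, 1 symbol per library (circle, square and triangle for replicates 1, 2 and 3), with the mean and SD of each group of 3 as black bars. The groups overlap for H2B only, where DMSO replicate 3 is the highest library.

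The H3 genes had the lowest summed level, at 4.16, 5.44 and 7.50 FPKM with DMSO and 9.06, 10.2 and 8.90 FPKM with bryostatin. The groups did not overlap, and the ratio of the means was 1.65. As CPM they overlapped, with DMSO replicate 3, at 6.79, above bryostatin replicates 1 and 3, at 5.62 and 5.84. Only 2 of the 15 H3 genes were abundant enough to test, HIST1H3I and HIST1H3H. HIST1H3I (chr6:27871905-27872315, minus strand) had 0.592, 1.89 and 1.09 FPKM with DMSO, from 6, 17 and 9 reads. It had 3.72, 2.92 and 2.93 FPKM with bryostatin, from 29, 24 and 26 reads. Every treated library was higher, and none of the 50-base stretches of HIST1H3I occur in another gene. The log2 difference was 0.97 ± 0.22 (SE), the second largest of the 28 genes, with an adjusted p of 0.216 by limma. HIST1H3H had a log2 difference of 0.11, with an interval from -0.56 to 0.77.

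The H4 genes summed to 12.9, 9.73 and 11.6 FPKM with DMSO and to 15.3, 18.9 and 13.5 FPKM with bryostatin, a ratio of 1.39 with no overlap. As CPM the H4 sums overlapped, with DMSO replicate 3 at 14.3 and bryostatin replicate 3 at 14.1. Of 6 tested H4 genes 5 were higher, but 3 of the 6 entered through 1 group only: HIST1H4J and HIST1H4C through the bryostatin mean and HIST1H4K through the DMSO mean, so that their direction was set by the limit on low values. HIST1H4I (chr6:27138588-27139881), the most abundant, had 3.54, 2.05 and 4.78 FPKM with DMSO and 4.36, 4.17 and 3.58 FPKM with bryostatin. Its treated libraries lay inside the DMSO range, and the log2 difference was 0.22 ± 0.22 (SE). HIST1H4A (chr6:26021679-26021990) had 1.30, 1.61 and 1.12 FPKM with DMSO and 4.56, 2.88 and 2.23 FPKM with bryostatin. Its groups did not overlap, although DMSO replicate 3 was here the lowest library, and the log2 difference was 0.82 ± 0.20 (SE) with an adjusted p of 0.216 by limma.

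HIST1H4K (chr6:27831216-27831527) had the lowest log2 difference of the 28 genes, -0.52 ± 0.31 (SE), among which it was counted only through its DMSO mean. It had 1.82, 1.61 and 1.12 FPKM with DMSO and 0.676, 1.76 and 0.149 FPKM with bryostatin, and the groups overlapped. Its values rest on 48 reads, and 100% of its 50-base stretches occur in transcripts of another gene. HIST1H4J, HIST1H4C and HIST4H4 had log2 differences of 0.66, 0.58 and 0.12, each with overlap between the groups, and the first pair had DMSO means of only 0.901 and 0.743 FPKM.

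The 32 genes under 1 FPKM had 1718 reads in all. Together they summed to 7.98, 6.86 and 11.05 FPKM with DMSO and to 12.8, 14.8 and 13.8 FPKM with bryostatin, so that every treated library was above every DMSO library. As CPM they overlapped, with DMSO replicate 3 at 15.1 and bryostatin replicate 1 at 14.1. In 6 of these 32 genes the bryostatin libraries all lay above the DMSO libraries, against 3.06% of the 15899 genes of the table in the same range of levels, and in 1 they all lay below, against 4.55%. They were not tested in the main fit, and they are named here after their values were seen. HIST1H2BG had 8, 10 and 20 reads with DMSO and 30, 51 and 28 with bryostatin. HIST2H3D had 1, 5 and 4 reads with DMSO and 6, 18 and 15 with bryostatin, but 80.4% of its 50-base stretches are shared with another gene. HIST1H2BF, HIST1H3A, HIST2H2AB and HIST1H2AB were the other 4, with between 15 and 65 reads in all. HIST1H2BE was the gene that lay lower, with 12, 13 and 20 reads with DMSO and 3, 4 and 5 with bryostatin. Of the HIST1H2BE model, 28.2% is covered by exons of another gene, AL353759.1.

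For the 11 genes listed at 0, a count of 0 allows up to 3 reads per library, which is 0.123 to 0.155 CPM at these depths. This limit and all counts here cover counting error only. Of these 11 genes, 5 share at least 90% of their 50-base stretches with other transcripts, against 6 of the other 60 genes. In 4 of the 11 at least 90% of the model is covered by exons of another gene, against 0 of the other 60. HIST1H2AK, for example, is covered 100% by exons of HIST1H2BN. The sources used here do not say how reads that fit more than 1 gene were handled. For 6 of the 11, however, under 10% of the model was shared or overlapped, as for 41 of the other 60. These 6 were HIST1H1T, HIST1H2AA, HIST1H2BA, HIST1H2BB, HIST1H4F and HIST1H4G. HIST1H2AA and HIST1H2BA are a neighbouring pair known from the testis, like HIST1H1T. Over all 71 genes, the 11 with at least 90% of shared stretches held 0.617% of the reads, and the 47 with under 10% held 70.6%. If reads that fit several genes were dropped, the first share would be low for that reason. It therefore does not show how far the sums depend on shared reads. HIST1H2BK, with 74.1% of its stretches shared, is in neither set.

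The gene models differ in which part of a histone transcript they cover. In 35 models, called coding-only here, nothing is annotated after the coding part, whereas 36 are longer at that end. The 5′ side was not part of this rule. The models of HIST1H3J and HIST1H2BA, both in the first class, have 775 and 516 bases, against 411 for HIST1H3I and 381 for HIST1H2BO. Of the 12 tested genes with a coding-only model, 11 were higher, 8 of these with an unadjusted p under 0.05, and in 6 the groups did not overlap, against 10.5% and 12.9% of all genes tested. Their median log2 difference was 0.74. Of the 16 tested genes with a longer model, 14 were higher, with an unadjusted p under 0.05 in 1 gene higher and 1 lower, against 10.5% and 7.18% of all genes, and the median was 0.20. With a trend on gene length removed from each library, the medians were 0.66 and 0.10. The difference between the classes itself was not tested. HIST1H4J and HIST1H4C, which were tested only through their bryostatin means, are among the 14 higher genes with a longer model. HIST1H4K, tested only through its DMSO mean, is the coding-only gene that was lower. The coding-only genes summed to 49.4, 54.5 and 78.0 FPKM with DMSO and to 91.8, 88.3 and 82.7 FPKM with bryostatin, with no overlap. The longer models summed to 47.8, 40.3 and 51.9 FPKM with DMSO and to 54.7, 53.2 and 49.2 FPKM with bryostatin, and here DMSO replicate 3 lay above bryostatin replicate 3.

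Among the longer models, 23 run past the stem-loop, by 35 to 1917 bases with a median of 1059. In 14 of these 23 the letters AATAAA, the signal for cleavage and polyadenylation, lie within the last 50 bases. Such a model can count reads from transcripts that passed the usual end of a histone mRNA. It also counts reads on the coding part of transcripts that ended there, and values per gene cannot tell these apart. The 23 genes summed to 32.5, 27.9 and 30.8 FPKM with DMSO and to 31.2, 32.8 and 29.4 FPKM with bryostatin, a ratio of the means of 1.02. These means were 30.4 and 31.1 FPKM, of which HIST3H2A, lower with bryostatin, alone held 14.1 and 10.7 FPKM. The ratio therefore depends strongly on that gene. Of the 9 tested ones 7 were higher, and their median log2 difference was 0.11, with HIST3H2A at the low end and HIST1H2AI, at 0.47, at the high end. HIST4H4, which runs 1510 bases past its stem-loop, had 1.79, 1.68 and 1.76 FPKM with DMSO and 1.74, 2.31 and 1.96 FPKM with bryostatin.

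The genes known for polyadenylated transcripts form another list, in which HIST1H1C and HIST1H2BK have coding-only models. All 6 of that list (HIST1H1C, HIST1H2AC, HIST1H2BC, HIST1H2BD, HIST1H2BK and HIST2H2BE) were tested, and together they held 33.7% of the reads of the histone cluster genes. All 6 log2 differences were above 0, but their median was 0.09, and HIST1H1C was the only one with an unadjusted p under 0.05. Of the 22 tested genes not on the list 19 were higher, with a median of 0.49, and the difference between the sets was not tested. The listed genes summed to 42.3, 42.9 and 59.9 FPKM with DMSO and to 58.2, 58.6 and 50.4 FPKM with bryostatin, overlapping. The other 65 genes summed to 54.9, 51.9 and 70.0 FPKM with DMSO and to 88.3, 82.8 and 81.5 FPKM with bryostatin, with no overlap.

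Carry-over of RNA without a poly(A) tail would also bring in histone mRNA, so 23 RNAs that carry no tail were measured beside it. Of these, 11 were listed at 0 and 2 were abundant enough to test. RN7SL2, the RNA of the signal recognition particle, had 183, 383 and 39.1 FPKM with DMSO and 859.6, 567 and 295 FPKM with bryostatin. DMSO replicate 2 lay above bryostatin replicate 3, DMSO replicate 3 was the lowest, and the log2 difference was 1.89 ± 0.80 (SE). RNU5A-1, a spliceosomal RNA, was the other, at a log2 difference of 0.70. RN7SL2 thus varied widely within each group and was on average higher with bryostatin. RN7SL1 and RN7SK, also on this list, were among those listed at 0 in every library. The part of such carry-over in the histone values was not tested.

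Many H2A and H2B genes lie head to head and start from a shared region. With starts at most 1000 bases apart, 11 such pairs of 22 genes were found, 219 to 331 bases between their starts. In 5 pairs both genes were tested, and partners could stand far apart in level. HIST1H2BK and HIST1H2AH, 331 bases apart, averaged 34.5 and 1.95 FPKM, a ratio of 17.7, with log2 differences of 0.11 and 0.78. HIST2H2BE and HIST2H2AC, 323 bases apart, averaged 1.53 and 8.47 FPKM, a ratio of 5.52, with log2 differences of 0.06 and 1.10. Their reads were nearly equal, at 430 and 407, on models of 2194 and 390 bases, so this ratio of FPKM comes from the model lengths. HIST1H2BK and HIST1H2AH had 1656 and 93 reads on models of 381 and 387 bases. In both pairs the partner known for polyadenylated transcripts had the smaller difference, and the difference within a pair was not tested. HIST1H2BL and HIST1H2AI were almost equal in level, at 1.54 and 1.57 FPKM, with log2 differences of 0.27 and 0.47. HIST1H2BJ and HIST1H2AG averaged 1.58 and 1.16 FPKM, and HIST1H2BC and HIST1H2AC averaged 1.503 and 2.72 FPKM. In reads the order of HIST1H2BJ and HIST1H2AG was the reverse, at 187 and 327, on models of 950 and 2250 bases. Among pairs with reads on both genes, the most unequal by ratio was HIST3H2A, with 1431 reads, and HIST3H2BB, 234 bases away, with 5. HIST1H2AD had 0 reads beside 65 for HIST1H2BF.

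**Figure D4:**
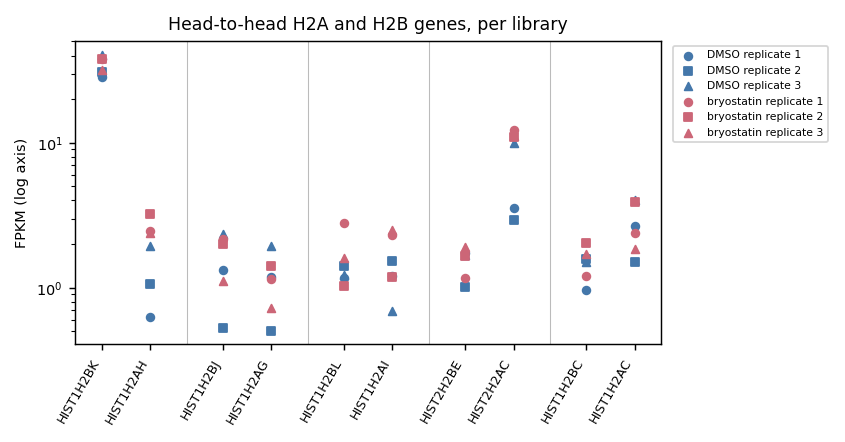
FPKM (log axis) of the 5 head-to-head pairs in which both genes were tested, the H2B gene on the left of each pair, 1 symbol per library. HIST1H2BK stands above HIST1H2AH and HIST2H2AC above HIST2H2BE in every library, while the ranges of HIST1H2BL and HIST1H2AI overlap.

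Promoter sequences were taken from RefSeq (GRCh38.p14), 250 bases before to 50 bases after the start, and 61 of the 71 genes were matched. On both strands they were searched for the octamer ATGCAAAT, bound by POU2F1 and its B cell relative POU2F2, for CCAAT, and for TATAAA. None of the 3 motifs contains another, and overlapping matches were kept. The octamer was found in 11 of 14 H2A and 14 of 18 H2B promoters, and in 0 of 6 H1, 0 of 10 H3 and 0 of 13 H4 promoters, against 1.77% of 35116 promoters of all genes. CCAAT was in all H1, H2A, H2B and H3 promoters and in 3 of 13 of H4, against 34.6% of all promoters. TATAAA was in 41 of 61 (67.2%), against 11.5%. A match describes the letters only.

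The promoters of 3 genes are printed because they belong to the gene with the largest difference upward, to the most abundant gene, and to the gene that was lower with an unadjusted p under 0.05. Each run is the 219 bases before the RefSeq start, the smallest distance between the starts of any pair above, 5′ to 3′ on the strand of the gene, with matches to the octamer, CCAAT and TATAAA on either strand in capitals. HIST2H2AC (chr1:149886699-149886917, plus strand) has an octamer that begins 197 bases before the start and TATAAA at 29 bases. HIST1H2BK (chr6:27146856-27147074, minus strand) has the octamer on the other strand at 49 bases and TATAAA at 30 bases. HIST3H2A (chr1:228457874-228458092, minus strand) has CCAAT at 66 bases and no match to the octamer or TATAAA in this stretch.
HIST2H2AC: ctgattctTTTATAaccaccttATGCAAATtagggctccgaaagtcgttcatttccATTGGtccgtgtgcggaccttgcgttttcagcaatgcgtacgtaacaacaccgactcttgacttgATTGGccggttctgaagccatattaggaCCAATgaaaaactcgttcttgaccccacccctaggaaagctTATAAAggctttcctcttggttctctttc
HIST1H2BK: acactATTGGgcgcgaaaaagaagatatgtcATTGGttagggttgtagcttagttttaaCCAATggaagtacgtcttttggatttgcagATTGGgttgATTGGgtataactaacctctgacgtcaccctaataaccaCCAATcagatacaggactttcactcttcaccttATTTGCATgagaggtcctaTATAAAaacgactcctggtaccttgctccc
HIST3H2A: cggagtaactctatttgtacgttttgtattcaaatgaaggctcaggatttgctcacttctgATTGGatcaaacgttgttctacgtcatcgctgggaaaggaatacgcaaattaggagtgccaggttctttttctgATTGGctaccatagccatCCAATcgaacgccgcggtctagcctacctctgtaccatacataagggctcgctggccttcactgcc

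Among the tested H2A and H2B genes with a matched promoter, 12 had the octamer and 4 did not. Of the 12, 11 were higher with bryostatin, with a median log2 difference of 0.33, and of the 4, 3 were higher, with a median of 0.17. The 12 genes with the octamer averaged between 1.16 and 34.5 FPKM and the 4 without it between 1.54 and 12.4 FPKM. The levels thus overlapped, and the groups are too small to compare further.

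The genes that make and process histone mRNA differed little as a list. Of 37 symbols on it 35 were found, and all 35 of these genes were tested. Of the 35, 27 were higher, with a median log2 difference of 0.10. At an unadjusted p under 0.05, 2 were higher and 3 lower, against 10.5% and 7.18% of all genes. CPSF4, a cleavage and polyadenylation factor, had the smallest p, at 14.1 ± 0.373 FPKM (SD, n = 3) with DMSO and 17.3 ± 0.683 FPKM (SD, n = 3) with bryostatin. TUT4, a terminal uridylyltransferase, was lower, with a log2 difference of -0.23. POU2AF1, the B cell coactivator of octamer promoters, was the most abundant, at a log2 difference of 0.06. A few more are named for their role, after their values were seen. SLBP, which binds the stem-loop, had 39.7, 38.7 and 70.8 FPKM with DMSO and 69.4, 57.6 and 58.1 FPKM with bryostatin. As in many histone cluster genes, DMSO replicate 3 was above the other DMSO libraries, here also above every treated library, and the log2 difference was 0.36 ± 0.23 (SE). NPAT, the coactivator that gathers at the histone clusters, had a log2 difference of 0.19. POU2F2 and POU2F1, which bind the octamer, were lower at -0.31 and -0.28, with unadjusted p of 0.027 and 0.029 by limma.

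The genes of S phase, when the clustered histone genes are known to be expressed, were higher with bryostatin in 30 of 30 cases. In 19 the unadjusted p was under 0.05, against the 10.5% of all genes, and 0 passed the adjusted threshold. Their median log2 difference was 0.58. POLA2, a subunit of DNA polymerase alpha, had 1.23, 1.60 and 1.96 FPKM with DMSO and 3.60, 2.78 and 3.16 FPKM with bryostatin. POLD1, the catalytic subunit of DNA polymerase delta, had 22.2, 27.4 and 31.9 FPKM with DMSO and 38.9, 37.0 and 37.1 FPKM with bryostatin. PCNA, the sliding clamp, was the most abundant of the list, at 82.2, 109.9 and 187 FPKM with DMSO and 208, 165 and 171 FPKM with bryostatin. In PCNA, too, DMSO replicate 3 lay within the treated range. The part of the S phase genes' difference in that of the histone cluster genes was not tested.

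Of 12 variant histone genes outside the clusters, whose mRNAs mostly carry a poly(A) tail, 8 were tested and 8 were higher, 5 with an unadjusted p under 0.05 against 10.5% of all genes, with a median log2 difference of 0.48. H1FX, a linker histone variant, had 46.2, 49.9 and 38.4 FPKM with DMSO and 70.3, 60.2 and 70.4 FPKM with bryostatin. H2AFZ, which encodes H2A.Z, had 85.7, 113.1 and 143 FPKM with DMSO and 239, 190.3 and 168 FPKM with bryostatin. Both had no overlap between groups, and for H1FX DMSO replicate 3 was the lowest library. Both averaged more than the most abundant clustered gene, HIST1H2BK, at 156 and 55.9 FPKM for H2AFZ and H1FX. Of the 30 histone chaperone genes 29 were tested, and 23 were higher, 12 with an unadjusted p under 0.05 and 0 lower at that level, against 10.5% and 7.18% of all genes, with a median of 0.23. HJURP, the chaperone of the centromeric histone, had the smallest p, at 9.23 ± 2.06 FPKM (SD, n = 3) with DMSO and 14.8 ± 1.16 FPKM (SD, n = 3) with bryostatin. CDAN1, a partner of the chaperone ASF1, had a log2 difference of 0.29, and NPM1, the most abundant, one of 0.11. MCM2 is on both this list and that of S phase.

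**Figure D5:**
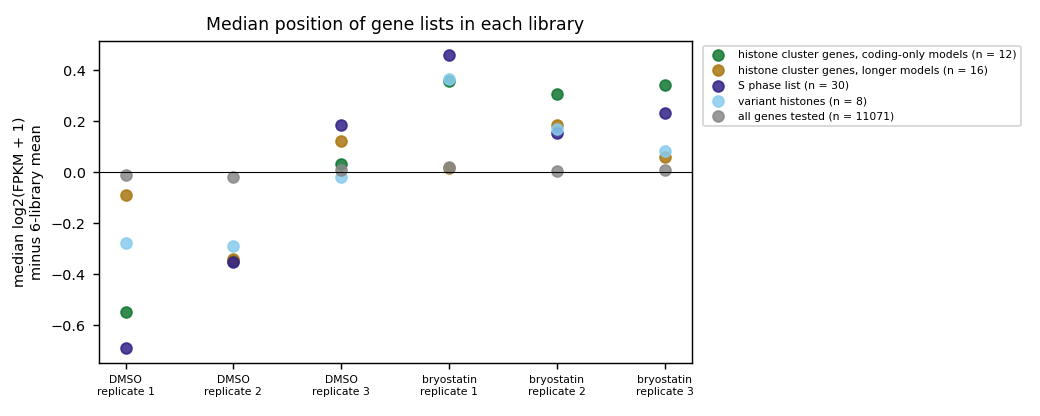
Median over the genes of each list of log2(FPKM + 1) minus the gene's mean over the 6 libraries, in each library. The coding-only histone cluster genes go from -0.55, -0.35 and 0.03 with DMSO to 0.36, 0.31 and 0.34 with bryostatin, while all genes tested stay near 0.

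Library by library, the coding-only histone cluster genes lay below their mean in DMSO replicates 1 and 2, as the S phase list did, and above it with bryostatin. Their median position was -0.55, -0.35 and 0.03 in the DMSO libraries and 0.36, 0.31 and 0.34 in the treated ones. The S phase median was -0.69, -0.35 and 0.19 with DMSO and 0.46, 0.16 and 0.23 with bryostatin. The longer models had -0.09, -0.34 and 0.12 with DMSO and 0.02, 0.18 and 0.06 with bryostatin. In all 3 lists DMSO replicate 3 was the highest of its group, and of these 3 only the coding-only models kept every treated library above it. The variant histones outside the clusters did so as well, with -0.02 in DMSO replicate 3 and 0.37, 0.17 and 0.09 with bryostatin.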

How the data were processed

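The authors deposited FPKM for 58735 genes in 6 libraries, with gene lengths and coordinates. The submitters' processing notes list DESeq2 1.20.0, featureCounts 1.5.0-p3, HISAT2 2.0.5, CASAVA and the build hg38, without roles. The sources used here do not give the annotation release, the strand setting or the treatment of reads that fit several genes, so overlapping genes on opposite strands cannot be told apart. The coordinates of all 71 histone genes equal those of GENCODE 29, which supplied the gene models. FPKM times length gave whole reads (within 0.001) for 100% of values. Genes that averaged 1 FPKM or more over the libraries were tested with limma 3.58.1 (R 4.3.3), trend on log2(FPKM + 1), with Benjamini-Hochberg adjustment over all genes; log2 differences are on that scale and understate the change of low genes. The fit was tested on simulated data. Alternatives were other pseudocounts, filters and scalings, a length trend, voom on the recovered reads, a replicate block and leaving out each library. Genes and lists were chosen with earlier results of these data known. Named with values are the most abundant gene of each family, genes with an unadjusted p under 0.05, the largest difference each way, the list of polyadenylated genes, and of other lists the genes with the 2 smallest p and the most abundant gene.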

Additional observations from a re-analysis of the deposited data

How the results depend on the processing

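Over 17 named genes and 16 other settings, where the gene was tested, 245 values kept direction and side of the adjusted threshold, 4 newly passed it (all without DMSO replicate 3) and 10 reversed. The reversals were in genes near 0: HIST1H2AC (-0.015 on TPM, -0.084 with the length trend removed), HIST1H2BD (-0.014) and HIST2H2BE (-0.027) with the length trend removed, and, leaving out 1 library at a time, HIST1H2AC (-0.24 to 0.26), HIST1H2BD (-0.063 to 0.23), HIST1H4I (-0.028 to 0.43) and HIST2H2BE (-0.078 to 0.18). Higher genes numbered 19 to 26 of 28 leaving out 1 library at a time and 22 with the length trend removed. The median log2 difference was 0.54 with a pseudocount of 0.1, 0.16 with no filter (60 genes) and 0.56 with voom weights. Genes higher at an unadjusted p under 0.05 numbered 14 of 49 with a filter of 0.1 FPKM, against 1337 of all 17559 genes. With a filter of 5 FPKM they numbered 2 of 4, against 943 of all 6638 genes. Leaving out 1 library at a time they numbered 5 to 12 of 28, against 560 to 1730 of all 11071 genes. Lower ones numbered 2 with a filter of 0.1 FPKM, against 1066 of all genes, and 0 to 1 leaving out 1 library, against 328 to 1131. They numbered 0 without DMSO replicate 1 or 2 or without bryostatin replicate 1 or 3. Genes passing the adjusted threshold numbered 0 to 4 leaving out 1 library, against 0 to 267 of all genes. With a replicate block, 10 genes were higher with an unadjusted p under 0.05, 1 was lower (784 and 407 of all 11071 genes), and the smallest adjusted p was 0.456. The numbers did not pair the libraries: deviations of same-numbered libraries correlated at -0.29, -0.32 and -0.11 across genes. CPM in place of FPKM, added after the data were seen, gave a log2 ratio of sums of 0.26. The 28 tested genes rest on 48 to 1656 reads each.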
